A study of Rattus norvegicus with 8 samples.

Results

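The imprinted growth genes H19, Igf2, Cdkn1c, Dlk1, Meg3, Mest, Peg3, Plagl1, Grb10 and Igf2r were followed in the prostate of rats descended from vinclozolin lineage or control lineage founders. They were taken as every probe set that the platform annotation gives to exactly 1 of these 10 symbols. This yielded 9 genes, of 14217 symbols that a probe set holds alone, on 16 probe sets out of 31042 probe sets that are no array controls and 20826 of those with 1 symbol. Peg3, a zinc finger transcription factor, had no such probe set and is not analysed here. Igf2 had 4 probe sets, Grb10 had 3, Meg3 and Igf2r had 2 each, and H19, Cdkn1c, Dlk1, Mest and Plagl1 had 1 each. Of the 16, 11 probe sets of 8 genes passed the filter on low intensity and were tested, whereas Plagl1, 3 probe sets of Igf2 and 1 of Meg3 did not.

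Expression was measured on 8 Affymetrix arrays in 4 groups of 2. Both founder lines were Sprague-Dawley rats, and dams were injected intraperitoneally on gestation days 8 to 14. Tissue came from generation 3 males. The groups were whole ventral prostate at 180 days of age, control and vinclozolin, and isolated ventral prostate epithelium at 45 days, control and vinclozolin. Vinclozolin is a fungicide with antiandrogenic activity. The protocol text names only the DMSO vehicle for all samples, those titled vinclozolin included, so the lineages are those of the titles and source names. Each epithelium sample pooled 11 animals and each whole prostate sample pooled several. The labels do not state that both samples of a group were drawn from different animals. The p-values therefore rest on the spread between pools, which may be technical. Age and preparation changed together and cannot be told apart.

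Imprinted genes are expressed mainly from 1 parental copy, according to DNA methylation marks that are set in the germ line. H19 and Igf2 are neighbours that share enhancers: on the maternal chromosome an insulator bound by CTCF leaves the enhancers to H19, a noncoding RNA, and on the paternal chromosome methylation of that insulator gives them to Igf2, a fetal growth factor. Dlk1 and Meg3 form a similar pair. In rodents Igf2, Dlk1, Mest, Peg3 and Plagl1 are expressed from the paternal copy, H19, Cdkn1c, Meg3 and Igf2r from the maternal copy in most tissues, and Grb10 from either copy depending on the tissue. Most of these genes are strongly expressed before birth and fall after it. The arrays give the summed RNA of both copies and carry no information on which copy was transcribed or on methylation.

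In the RefSeq gene table of assembly GRCr8, 1 entry lies between H19 and Igf2 and 1 between Dlk1 and Meg3, and 13 lie between Igf2 and Cdkn1c. H19, Igf2 and Meg3 contain miRNAs, which these arrays did not measure. That of Meg3, miR-770, is not shown. The seed, bases 2 to 8, is in capitals in the mature sequences of the others, taken from RefSeq. These sequences are given because they are encoded within genes whose levels are described below. Those of miR-675 lie inside H19 at chr1:207161800-207161821 (5p) and chr1:207161766-207161786 (3p), and those of miR-483 inside Igf2 at chr1:207247903-207247924 (5p) and chr1:207247865-207247886 (3p), all on the minus strand.
rno-miR-675-5p: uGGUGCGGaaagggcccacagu
rno-miR-675-3p: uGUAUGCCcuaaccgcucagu
rno-miR-483-5p: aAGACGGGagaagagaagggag
rno-miR-483-3p: cACUCCUCcccucccgucuugu
The 4 seeds differ from each other.

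RefSeq promoter windows, from 250 bases before to 50 after a gene's start, were found for 8 of the 10 genes, Igf2 having 2 of them. Those of Igf2 and Mest are shown because these genes had the largest differences in level between the preparations in the control arrays, Igf2 upward and Mest downward. CpG dinucleotides, the sites at which imprinting marks are placed, are in capitals. The windows are chr1:207253931-207254230 and chr1:207250426-207250725 (minus strand) for Igf2 and chr4:60321564-60321863 (plus strand) for Mest.
Igf2, upstream start: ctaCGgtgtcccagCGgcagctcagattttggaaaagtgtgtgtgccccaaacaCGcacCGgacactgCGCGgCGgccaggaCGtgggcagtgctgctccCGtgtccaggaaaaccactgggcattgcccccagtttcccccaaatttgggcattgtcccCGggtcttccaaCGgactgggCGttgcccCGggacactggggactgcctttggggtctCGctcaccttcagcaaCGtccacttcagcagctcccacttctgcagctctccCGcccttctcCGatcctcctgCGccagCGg
Igf2, downstream start: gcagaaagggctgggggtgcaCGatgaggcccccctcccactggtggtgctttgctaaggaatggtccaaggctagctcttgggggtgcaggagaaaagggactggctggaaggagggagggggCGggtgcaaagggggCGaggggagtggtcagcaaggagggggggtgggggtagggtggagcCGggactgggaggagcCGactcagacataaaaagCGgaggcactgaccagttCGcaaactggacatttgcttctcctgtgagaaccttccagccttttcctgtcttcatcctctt
Mest: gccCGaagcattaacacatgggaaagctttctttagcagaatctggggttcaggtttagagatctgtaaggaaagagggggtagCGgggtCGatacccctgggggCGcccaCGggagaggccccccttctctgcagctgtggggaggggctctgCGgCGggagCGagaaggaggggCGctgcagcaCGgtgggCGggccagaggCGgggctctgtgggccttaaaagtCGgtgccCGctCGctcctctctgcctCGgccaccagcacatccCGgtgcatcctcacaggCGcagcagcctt
The windows of Igf2 held 19 and 7 CpG and that of Mest held 18, against a median of 7 over 33469 windows of the same length. Dlk1 held 45 and Grb10 held 44, more than 98.3% and 98.1% of all windows. Igf2r held 30, Plagl1 held 29, Peg3 held 16 and Meg3 held 13. The letters TGCCGC, the core recognised by the imprint-protecting factor ZFP57, were counted on both strands. They occurred once in the windows of Dlk1, Meg3, Plagl1 and Grb10 and in the upstream window of Igf2, and in 11.7% of all windows. The letters GGGGCCCC, which read the same on both strands, occurred in the window of Peg3 and in 0.858% of all. TATAAA, counted on the strand of the gene, occurred in that of Meg3 and in 8.8% of all. Such matches are descriptions of the letters, not sites.

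Several of these genes were dim on the arrays. Array medians ran from 28.7 to 38.7 intensity units, and 28.3% to 36.7% of probe sets on an array were under 16 units. Igf2r was the exception, with its brighter probe set above 95.2% of all probe sets in mean level. H19 stood at the 51.1 percentile, Igf2 at 63.0, Grb10 at 60.1, Cdkn1c at 57.5, Mest at 53.7, and Dlk1 and Meg3 at 40.7. Plagl1, at the 19.9 percentile, was under 16 units on 7 of the 8 arrays. Changes below are in log2(intensity + 16) after quantile normalisation, each ± its standard error (SE). The added 16 makes changes of dim genes smaller than those of the intensities. "Called" means an adjusted p under 0.05 in limma's fit of all 21729 probe sets tested.

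**Figure D1:**
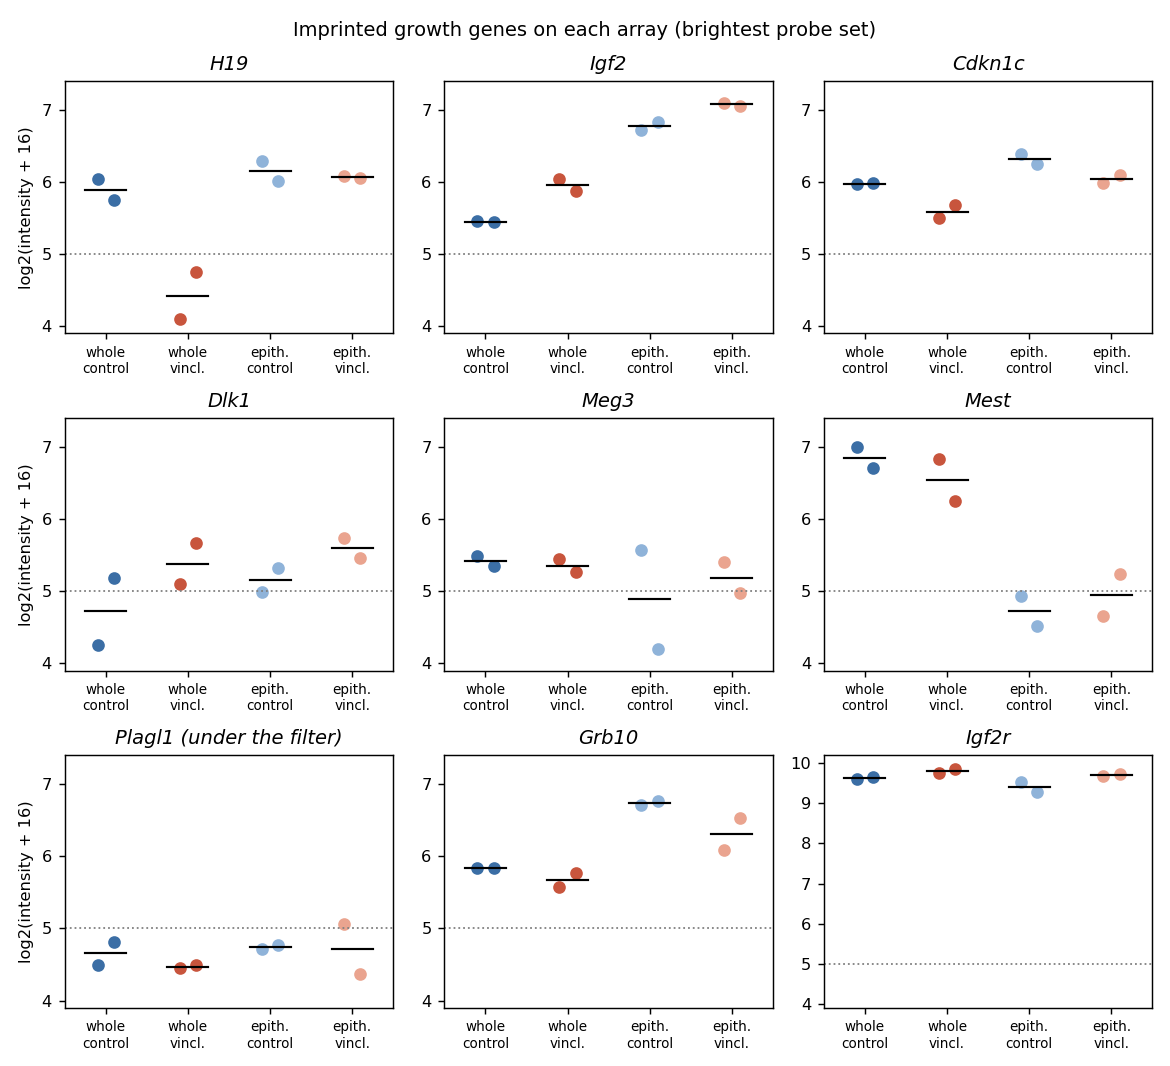
Level of 9 imprinted growth genes on each of the 8 arrays, on the brightest probe set of each, in log2(intensity + 16) after quantile normalisation. Points are single arrays, horizontal bars are group means of 2 arrays, and the dotted line at 5 marks an intensity of 16. H19 is low on both whole prostate vinclozolin arrays, Igf2 is higher on every epithelium array, Mest is higher on every whole prostate array, and Igf2r has its own axis range.

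Of the 11 tested probe sets, that of H19 was the 1 called between the lineages in whole prostate, where 1.74% of all were called. H19 kept that call in 6 of 18 alternative settings of the processing. Its intensity was 44.9 and 33.7 in the controls, against 1.0 and 10.6 in the vinclozolin samples. Both vinclozolin arrays lay under both controls and also under 16 units, where the order of values is poorly resolved. In epithelium H19 read 66.6 and 52.0 in control and 57.6 and 56.0 in vinclozolin, and the groups overlapped.

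The mean log2 level of H19 in whole prostate was 5.89 ± 0.21 (SD, n = 2) in control and 4.42 ± 0.46 (SD, n = 2) in vinclozolin. It fell by 1.47 ± 0.23 (SE), with an adjusted p of 0.0392. The size of this change is set by the pseudocount, since both vinclozolin arrays were under 16 units: it was -3.14 with a pseudocount of 1 and -0.62 with 64. The mean intensities were 39.3 in control and 5.8 in vinclozolin. In epithelium the means were 6.15 ± 0.20 and 6.07 ± 0.02 (SD, n = 2), a change of -0.08 ± 0.23 with a 95% interval of -0.64 to 0.48 (adjusted p = 0.933). The difference between the effects in the 2 preparations, 1.39 ± 0.33, was not called (adjusted p = 0.186), so the effect was not shown to be particular to whole prostate. Mean levels ran from epithelium control through epithelium vinclozolin and whole prostate control to whole prostate vinclozolin. After normalisation the epithelium control arrays overlapped with those of the next 2 groups, and whole prostate vinclozolin lay apart from all.

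The call of H19 rested on every array. With any 1 of the 8 left out the change stayed between -1.79 and -1.15 and the adjusted p between 0.0572 and 0.235. The adjusted p was 0.130 with a pseudocount of 1, 0.0647 with no filter and 0.111 with the 4 whole prostate arrays alone. Only 1 probe set reports H19, so no second one could be compared.

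Other RNAs moved with H19 in whole prostate. Skeletal muscle, a tissue in which H19 is abundant, was represented by 17 marker genes on the array. Their mean log2 level was 6.89 and 6.90 in the controls, 5.65 and 5.78 in the vinclozolin samples, and 6.14 to 6.31 in epithelium. All 14 tested had negative changes in whole prostate, with a median of -1.38. Of these, 6 were called lower, while 1.74% of all probe sets were called there. Myl1, a fast myosin light chain, fell by 2.87 ± 0.16, and Tnnc2, fast troponin C, fell by 1.95 ± 0.11. Acta1, Tnnt3, Tnni2 and Actn3, which encode other proteins of the contractile apparatus, were also called lower. Myod1, which defines the muscle lineage, read 0.7 to 11.6 on all 8 arrays.

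Macrophage markers had a mean level of 6.75 and 6.79 in control and 7.10 and 7.21 in vinclozolin whole prostate. Of 10 tested, 7 had positive and 3 negative changes, and Csf1r and Fcgr3a were called higher. The 4 seminal vesicle genes on the array stood at 7.93 and 8.08 in control and 6.89 and 7.08 in vinclozolin. In epithelium they stood at 6.92 to 7.55. All 3 tested had negative changes in whole prostate, and Svs4 and Semg1 were called lower. Among 3 nerve markers tested Uchl1 was called higher and Pmp22 lower. Among 7 endothelial markers tested, with 3 positive and 4 negative changes, Esam was called higher. Over all probe sets 1.74% were called between the lineages in whole prostate. For 5S ribosomal RNA, one of the array controls, the intensity was 463 and 479 in control and 189 and 184 in vinclozolin whole prostate, and 459 to 549 in epithelium. The 3' to 5' ratio of beta-actin, a sign of RNA integrity, was 3.74 and 3.98 against 3.37 and 3.14. The mean of luminal epithelial markers stood at 10.4 to 10.5 on all 8 arrays, and 0 of 8 were called between the lineages. The part of any of these in the result on H19 was not tested. In whole tissue, fewer cells of a type and less RNA per cell cannot be told apart.

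**Figure D2:**
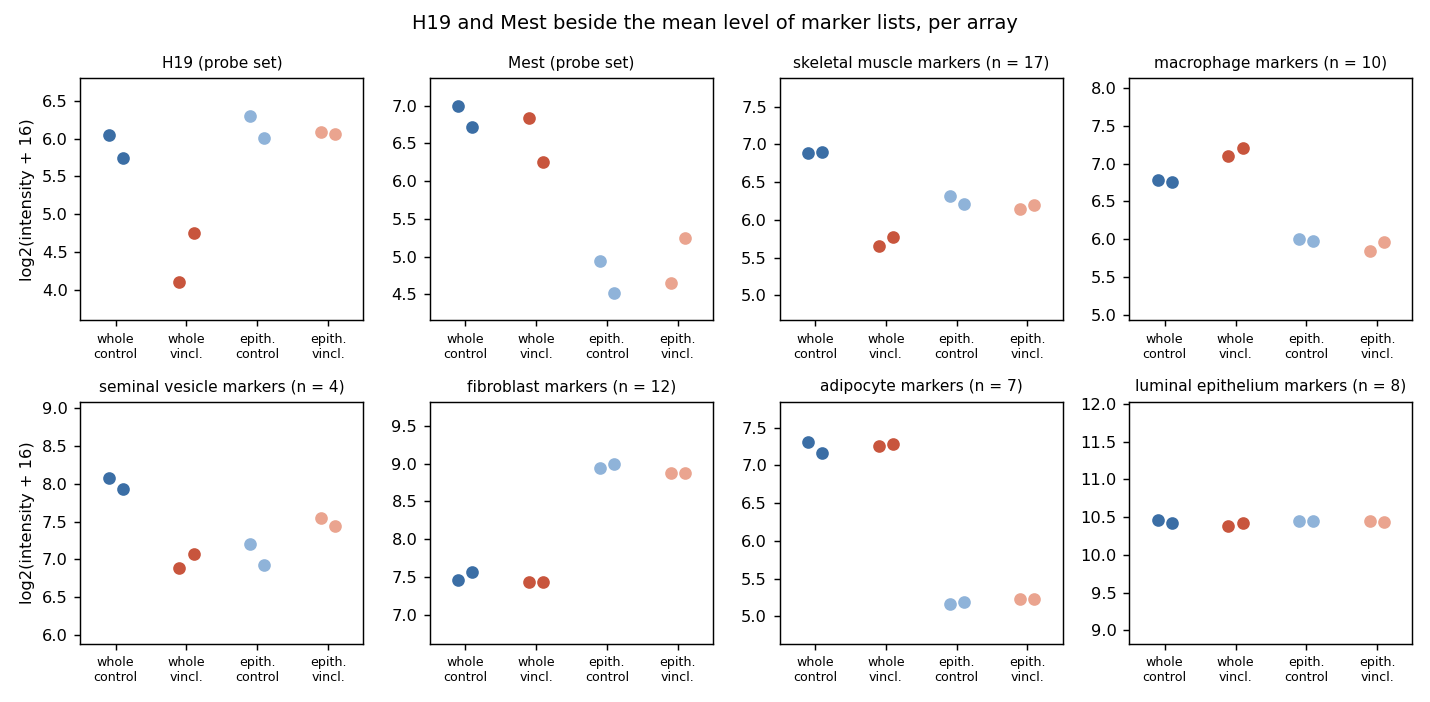
H19, Mest and the mean level of 6 lists of cell type markers on each of the 8 arrays, in log2(intensity + 16), with n the number of genes in a list. Every panel spans the same range of log2 units. Within whole prostate, skeletal muscle and seminal vesicle markers are lower on the vinclozolin arrays, as H19 is. In control epithelium the means of both lists are below those of control whole prostate, and the H19 arrays of these 2 groups overlap. Skeletal muscle markers stand at 6.31 and 6.22 there against 6.89 and 6.90, and seminal vesicle markers at 7.21 and 6.92 against 8.08 and 7.93. Single skeletal muscle markers went both ways between these groups. Of 14 tested, 4 were called higher and 7 lower in control epithelium, where 27.8% of all probe sets were called. The part of these tissues in the level of H19 was not tested. Adipocyte markers follow the preparation, as Mest does.

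Of the 11 tested probe sets, H19 was thus the 1 called in whole prostate, 0 higher and 1 lower, while 1.74% of all probe sets were called there. Changes were positive for 4 and negative for 7, with a median of -0.17 against -0.01 over all. The median size of change was 0.38 for them and 0.21 for all. The arrays of the lineages did not overlap for 7 of the 11, and for 53.9% of all probe sets. In epithelium 0 of the 11 were called, with 2 at an unadjusted p under 0.05, and 0.0092% of all probe sets (2 of 21729) were called. There 8 changes were positive and 3 negative, with a median of 0.26 against -0.0018 over all, and groups did not overlap for 5, against 39.4% of all. For the difference of effects 0 were called, with 2 at an unadjusted p under 0.05, against 0.29% of all.

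Igf2, the ligand, was measured on 1 probe set above the filter, 1367571_a_at. Its intensity in whole prostate was 23.6 and 23.5 in control and 45.3 and 39.3 in vinclozolin. In epithelium it was 92.1 and 100.6 in control and 122.8 and 119.7 in vinclozolin. Both vinclozolin arrays exceeded both controls in each preparation, though neither difference was called. The changes were 0.51 ± 0.12 in whole prostate (adjusted p = 0.0866) and 0.30 ± 0.12 in epithelium (adjusted p = 0.412). Raising the filter to the 50th percentile brought the whole prostate value under the threshold (adjusted p = 0.0385).

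The other 3 probe sets of Igf2, 1388252_at, 1371206_a_at and 1398322_at, read between 1.3 and 17.6 on all arrays and overlapped between the lineages in both preparations. Their untested changes were 0.42, 0.28 and 0.03 in whole prostate and -0.23, 0.02 and -0.04 in epithelium. The brighter probe set alone therefore carries the Igf2 values.

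Dlk1, a transmembrane ligand of the Notch family that holds back adipocyte differentiation, also had positive changes. It read 2.5 and 17.2 in whole prostate control and 15.9 and 32.4 in vinclozolin, which overlapped. In epithelium it read 18.2 and 25.7 in control and 42.2 and 31.8 in vinclozolin, which did not. The changes of 0.66 ± 0.34 and 0.44 ± 0.34 were not called (adjusted p = 0.356 and 0.677).

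Igf2r, the mannose 6-phosphate receptor that carries IGF2 and lysosomal enzymes to degradation compartments, was the brightest of the genes. Its probe set 1386872_at read 788.2 and 819.1 in whole prostate control, 886.9 and 936.8 in vinclozolin, 709.6 and 597.2 in epithelium control and 777.0 and 805.2 in epithelium vinclozolin. The vinclozolin arrays were above the controls in each preparation, by 0.18 ± 0.13 and 0.29 ± 0.13, without a call (adjusted p = 0.496 and 0.454). The second probe set, 1367636_at, gave 0.23 ± 0.12 and 0.08 ± 0.12. The 95% intervals of the brighter probe set, -0.12 to 0.49 and -0.01 to 0.60, leave out changes of 2-fold.

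Grb10, an adaptor protein that binds and dampens the insulin and IGF1 receptors, had probe sets that differed in direction in epithelium. On 1371517_at the whole prostate arrays read 36.3 and 37.2 in control and 28.5 and 35.4 in vinclozolin, and the epithelium arrays 91.8 and 94.9 in control and 57.3 and 81.3 in vinclozolin. On 1397211_at they read 30 and 28.9, then 14.3 and 21.4, in whole prostate and 42.5 and 69.0, then 69.1 and 68.0, in epithelium. All 3 probe sets were lower in vinclozolin whole prostate, by -0.17 ± 0.17, -0.51 ± 0.20 and -0.38 ± 0.36, and none was called (adjusted p from 0.249 to 0.640). In epithelium the values were -0.43 ± 0.17, 0.26 ± 0.20 and 0.30 ± 0.36, so no direction can be given for the gene.

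Cdkn1c, the cyclin-dependent kinase inhibitor p57, which restrains the cell cycle, was lower on both vinclozolin arrays in each preparation. It read 41.8 and 43.3 in whole prostate control, 26.1 and 33.0 in vinclozolin, 71.7 and 63.6 in epithelium control and 52.9 and 57.7 in vinclozolin. The changes, -0.39 ± 0.12 and -0.27 ± 0.12, were not called (adjusted p = 0.173 and 0.471).

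Meg3, the noncoding RNA of the Dlk1 locus, read 24.4 and 21.1 in whole prostate control and 24.6 and 21.7 in vinclozolin on 1388357_at. In epithelium the values were 36.1 and 2.5 in control and 30.9 and 17.6 in vinclozolin. The control arrays there spanned the vinclozolin ones, and the changes were -0.06 ± 0.41 and 0.30 ± 0.41. The sign in whole prostate turned with the intensities as deposited, and that in epithelium turned to -0.39 without epithelium control replicate 2. The other probe set of Meg3 ran from 1.3 to 23.6 and was under the filter.

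Mest, a membrane protein of the alpha/beta hydrolase fold, read 110.6 and 86.5 in whole prostate control and 94.7 and 55.7 in vinclozolin, which overlapped (-0.31 ± 0.29, adjusted p = 0.617). In epithelium it read 17.1 and 7.7 in control and 10.8 and 24.7 in vinclozolin (0.22 ± 0.29, adjusted p = 0.825). Plagl1, a zinc finger transcription factor that activates other imprinted genes, read 4.7 to 10.1 in whole prostate and 5.3 to 20.6 in epithelium, too dim for a test. Its untested changes were -0.18 and -0.03.

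The vinclozolin comparisons of the preparations share no arrays. Of the 11 probe sets, 7 had the same sign in both (63.6%), against 54.2% of all. In 4 of them, those of Igf2 and Cdkn1c with the brighter ones of Grb10 and Igf2r, the lineages did not overlap in either preparation, and all 4 had the same sign in both. Of all 21729 probe sets tested, 4840 were apart in both, and 61.1% of these had the same sign.

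**Figure D3:**
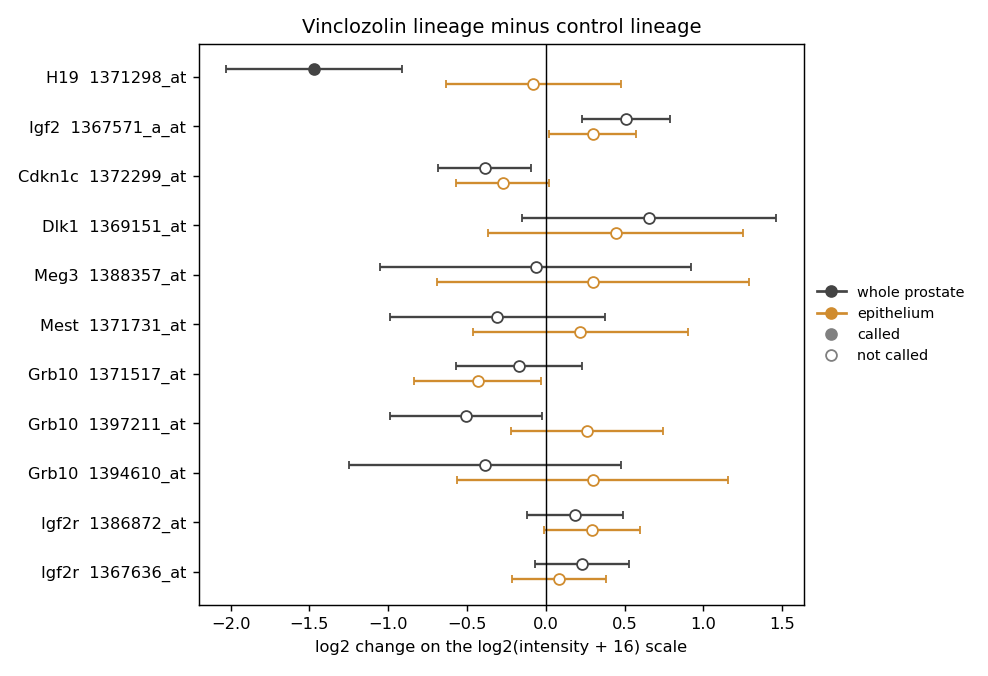
Log2 change between the lineages, vinclozolin minus control, for the 11 tested probe sets in whole prostate (dark) and epithelium (orange), with the 95% interval of limma's fit. Filled points were called at an adjusted p under 0.05 and open points were not. H19 in whole prostate, at -1.47, is the only filled point, and Igf2 lies to the right of 0 in both preparations.

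More of the imprinted probe sets were called between the preparations than between the lineages, as was so over the whole array. In the control arrays Igf2 was higher in 45-day epithelium than in 180-day whole prostate by 1.33 ± 0.12 (adjusted p = 0.00070). Its mean intensities there were 96.35 in epithelium and 23.55 in whole prostate. The size of this change depended on the processing, from 0.78 to 1.72 over the 18 alternatives run. Mest was lower in control epithelium by -2.13 ± 0.29 (adjusted p = 0.0032). Of the 11 probe sets, 2 were called higher and 2 lower, and 27.8% of all probe sets were called. Groups did not overlap for 7 of the 11 and for 66.6% of all.

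In the vinclozolin arrays, a comparison added after the data were seen, Igf2 was higher by 1.12 ± 0.12 (adjusted p = 0.0013) and Mest lower, at -1.6 ± 0.29 (adjusted p = 0.0091). There 5 were called higher and 2 lower, against 27.4% of all, and groups did not overlap for 8 of 11, against 65.4% of all. The calls of Igf2 and Mest held in both comparisons under each of the 18 alternatives run. For Igf2 the levels ran from whole prostate control (5.45 ± 0.01) through whole prostate vinclozolin (5.96 ± 0.12) and epithelium control (6.78 ± 0.08) to epithelium vinclozolin (7.08 ± 0.02, all SD, n = 2), with no overlap between neighbours. For Mest the whole prostate groups, at 6.85 ± 0.20 and 6.55 ± 0.41, overlapped with each other, as did the epithelium groups at 4.73 ± 0.30 and 4.95 ± 0.42.

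Among the other genes, Grb10 was higher in epithelium by 0.90 ± 0.17 in control (adjusted p = 0.0103) and 0.64 ± 0.17 in vinclozolin (adjusted p = 0.0333) on 1371517_at. On 1397211_at the same differences were 0.40 ± 0.20 (adjusted p = 0.190) and 1.17 ± 0.20 (adjusted p = 0.0081). The dimmest probe set, 1394610_at, gave -0.20 ± 0.36 (adjusted p = 0.716) and 0.48 ± 0.36 (adjusted p = 0.366), neither called, and thus the opposite direction in control. Without whole prostate control replicate 1 or 2 the control call of 1371517_at was lost (adjusted p = 0.0602 and 0.0594). Its vinclozolin call was lost without any whole prostate array or epithelium vinclozolin replicate 2 (adjusted p from 0.0629 to 0.140). H19 was not called in the control arrays (0.26 ± 0.23, adjusted p = 0.452, 95% interval -0.30 to 0.82). It was higher in epithelium by 1.65 ± 0.23 in the vinclozolin arrays (adjusted p = 0.0040), which rests on the same low whole prostate arrays.

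Igf2r on 1367636_at was lower in epithelium by -0.46 ± 0.12 in control (adjusted p = 0.0366) and -0.60 ± 0.12 in vinclozolin (adjusted p = 0.0149). Its brighter probe set gave -0.21 ± 0.13 and -0.10 ± 0.13, which were not called. The control call was lost when any array but epithelium control replicate 1 was left out (adjusted p from 0.0526 to 0.166), and the vinclozolin call without whole prostate vinclozolin replicate 2 or epithelium vinclozolin replicate 1 (adjusted p = 0.0751 and 0.0670). Cdkn1c was higher by 0.34 ± 0.12 in control (adjusted p = 0.0883) and by 0.45 ± 0.12 in vinclozolin (adjusted p = 0.0374). The latter call was lost without any whole prostate or epithelium vinclozolin array (adjusted p from 0.0652 to 0.160). Dlk1 (0.43 ± 0.34 and 0.22 ± 0.34) and Meg3 (-0.53 ± 0.41 and -0.17 ± 0.41) were not called.

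Markers of several cell types moved with the preparation. Luminal epithelial markers had a level mean, but of the 8 genes Krt8 (0.62 ± 0.12) and Krt19 (0.64 ± 0.12) were called higher and Hoxb13 (-0.40 ± 0.12) and Foxa1 (-0.43 ± 0.12) lower in control epithelium. In vinclozolin epithelium 1 of the 8 was called higher and 1 lower, against 27.4% of all probe sets called there. Fibroblast markers stood at 8.87 to 9.0 on the epithelium arrays against 7.43 to 7.57 on the whole prostate arrays. Of these, 11 of 12 were called higher in control epithelium, where 27.8% of all probe sets were called. Smooth muscle markers stood at 10.02 to 10.27 against 8.13 to 8.38, and basal epithelial markers at 9.06 to 9.23 against 7.06 to 7.16. The samples labelled epithelium therefore also held stromal RNA. Adipocyte markers stood at 5.16 to 5.23 in epithelium against 7.16 to 7.31, and macrophage markers at 5.85 to 6.0 against 6.75 to 7.21. Igf2 was higher where fibroblast markers were, and Mest where adipocyte markers were; the part of these cells in either difference was not tested. Signs of RNA quality moved as well: the 3' to 5' ratio was 2.26 to 2.57 in epithelium against 3.14 to 3.98 in whole prostate for beta-actin, and 1.08 to 1.22 against 1.35 to 1.47 for GAPDH. Their part was not tested either.

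**Figure D4:**
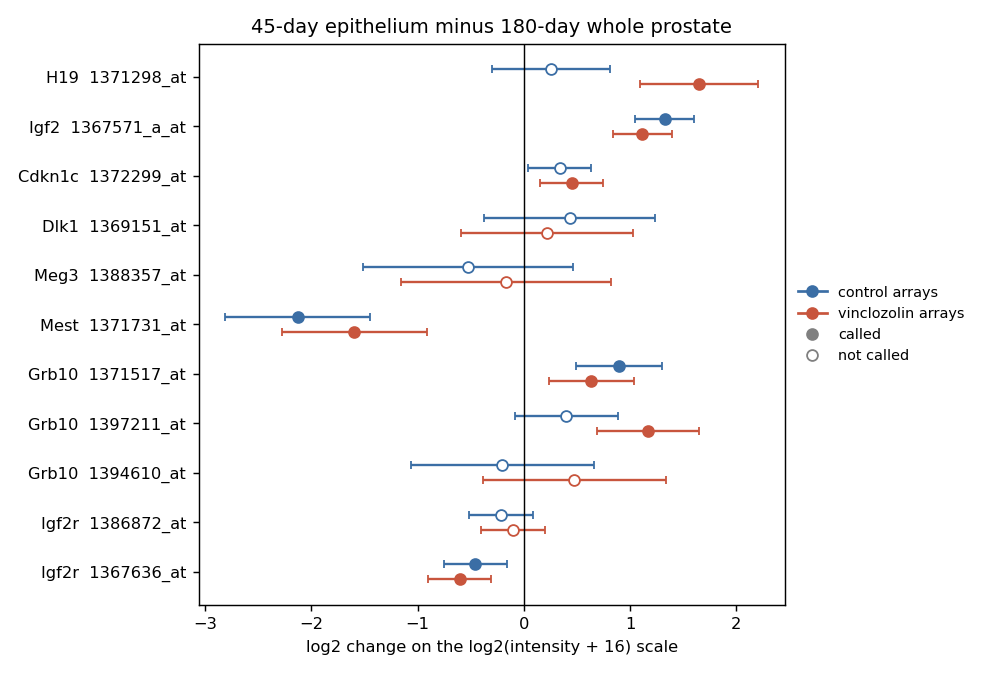
Log2 change between the preparations, 45-day epithelium minus 180-day whole prostate, for the 11 tested probe sets in the control arrays (blue) and the vinclozolin arrays (red), with the 95% interval of limma's fit. Filled points were called. Igf2 is called to the right and Mest to the left of 0 in both, and H19 is called only in the vinclozolin arrays, at 1.65.

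A wider list of 65 other imprinted genes had 50 on the array and 39 tested. In whole prostate 0 of the 39 were called between the lineages, with a median change of -0.08 against -0.01 for all probe sets, 16 positive and 23 negative. The lowest p-values, none of them passing, belonged to Qpct (-0.84 ± 0.17, adjusted p = 0.0695), a glutaminyl cyclase, Trappc9 (0.62 ± 0.14), Mcts2 (-0.74 ± 0.19), Ampd3 (0.34 ± 0.12), an AMP deaminase, Dcn (-0.29 ± 0.11), the matrix proteoglycan decorin, and Casd1 (-0.36 ± 0.14). In epithelium 0 of 39 were called, with a median of 0.03. There Ampd3 (0.68 ± 0.12), Htr2a (0.74 ± 0.21), Pon3 (0.90 ± 0.34), Usp29 (0.51 ± 0.19), Tssc4 (-0.31 ± 0.13) and Phlda2 (-0.32 ± 0.15) had the lowest p-values (adjusted p from 0.212 to 0.481). Ampd3 read 2546.6 and 2107.7 in whole prostate control, 3149.2 and 3215.5 in vinclozolin, 813.3 and 772.3 in epithelium control and 1318.9 and 1288.6 in epithelium vinclozolin. The lineages of Ampd3 were thus apart in both preparations, the vinclozolin arrays being the higher ones. So were the lineages apart in both for 4840 of all 21729 probe sets tested, 61.1% of these with the same sign.

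Between the preparations, 9 of the 39 were called higher and 4 lower in control epithelium, and 8 and 4 in vinclozolin epithelium. Over all probe sets 27.8% and 27.4% were called, so these counts are near those of the whole array. Nnat, which encodes the proteolipid neuronatin, was lower by -2.16 ± 0.15 and -2.35 ± 0.15. Ampd3 was lower by -1.56 ± 0.12 and -1.23 ± 0.12. Cd81, a tetraspanin, was higher by 1.3 ± 0.11 and 1.36 ± 0.11, Dcn by 0.90 ± 0.11 and 1.09 ± 0.11, and Gnas, the stimulatory G protein subunit, by 0.65 ± 0.12 and 0.66 ± 0.12. Dio3, a deiodinase of the Dlk1 locus, was called higher in control epithelium (0.98 ± 0.19, adjusted p = 0.0119) but not in vinclozolin epithelium (0.15 ± 0.19, adjusted p = 0.589). It read 4.7 and 5.3 in whole prostate control, under 16 units, so the size of its difference depends on the pseudocount.

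Partners of IGF2 were given by 15 genes, 12 of them tested. Irs2, a substrate of the insulin and IGF1 receptors, fell in vinclozolin whole prostate by 1.19 ± 0.16 (adjusted p = 0.0246). It was the 1 called of the 12, while 1.74% of all probe sets were called there. It read 34.2 and 38.4 in control, 4.4 and 12.5 in vinclozolin, and 154.4 to 186.2 in epithelium. Both vinclozolin whole prostate arrays were under 16 units, so the size of the fall depends on the pseudocount. Igf1r, the signalling receptor of IGF2, measured -0.69 ± 0.13 (adjusted p = 0.0553) and was not called. In epithelium 0 were called, Igfbp3 (-0.45 ± 0.23) and Igfbp7 (-0.20 ± 0.11) having the lowest p-values. Between the preparations 6 of the 12 were called higher and 1 lower in control epithelium, where 27.8% of all probe sets were called. The binding proteins Igfbp3 (2.89 ± 0.23), Igfbp2 (2.82 ± 0.12), Igfbp5 (2.76 ± 0.11), Igfbp7 (2.38 ± 0.11) and Igfbp4 (0.56 ± 0.12), which hold IGFs in the tissue fluid, were higher, as was Irs2 (1.82 ± 0.16). Igf1, the other IGF ligand, was lower (-0.92 ± 0.14). In vinclozolin epithelium Igfbp4 was not called (0.15 ± 0.12, adjusted p = 0.418). There 5 of the 12 were called higher and 3 lower, against 27.4% of all.

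In the mannose 6-phosphate pathway, in which Igf2r works, 0 of 12 were called in either preparation. The median change there was 0.15 in whole prostate and -0.02 in epithelium. Ctsd, the protease cathepsin D, measured 0.60 ± 0.11 in whole prostate (adjusted p = 0.0553) and Ctsz 0.69 ± 0.14 (adjusted p = 0.0729). In epithelium Gnptab, which makes the mannose 6-phosphate tag (0.55 ± 0.17, adjusted p = 0.316), and Nagpa (-0.58 ± 0.19, adjusted p = 0.361) had the lowest p-values. Between the preparations Ctsz (0.77 ± 0.14) and Ctsd (0.58 ± 0.11) were called higher and Ctsa lower (-0.45 ± 0.12) in control epithelium, 3 of 12 against 27.8% of all. In vinclozolin epithelium these 3 were not called (0.03 ± 0.14, 0.30 ± 0.11 and -0.14 ± 0.12). There 0 of the 12 were called higher and 1 lower, against 27.4% of all.

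The genes whose levels over the 8 arrays were most like those of H19 were Tpm1, a tropomyosin (Pearson 0.977), Ldaf1 (0.967), Cmahp (0.964), Tenm3 (0.961) and Carmil1 (0.960). They were taken from 2830 probe sets with 1 symbol whose group means spanned at least 1 log2 unit, and each was lowest in vinclozolin whole prostate. Tpm1 had a group mean of 8.10 in the whole prostate controls, 7.05 in their vinclozolin counterparts, and 8.07 and 8.06 in the epithelium groups. The genes most like Igf2 were Ccnd1, cyclin D1 (0.994), Edem1 (0.994), Bcr (0.991), Slc7a5 (0.991), an amino acid transporter, and Top2a (0.991), a topoisomerase of dividing cells. Ccnd1 had group means of 6.92 and 7.77 in whole prostate and 9.58 and 9.88 in epithelium, in the order that Igf2 took. These correlations are descriptions: the arrays form 4 groups and share their scaling. A gene picked for its likeness to H19 or Igf2 shares its pattern by that choice, so the shared order is no separate result. Between the imprinted genes themselves, H19 and Cdkn1c had a correlation of 0.910 over the 8 arrays, H19 and Igf2 one of 0.394, and Igf2 and Mest one of -0.919.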

How the data were processed

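RNA of 8 pooled prostate samples was labelled with biotin by the maker's procedure, per the labels' protocols. The authors deposited intensity values, linear in scale, for 31099 probe sets. The software behind these values: not given in the sources used here. All arrays shared a trimmed mean (2% at each end) of about 125 units. Groups were taken from titles. The 57 control probe sets were left out and intensities taken to log2(value + 16). Array medians then differed by 0.29, so arrays were quantile normalised, and probe sets whose mean lay below the 30th percentile were dropped. Group means were fitted with limma 3.58.1 (R 4.3.3) on all 8 arrays, with 4 residual degrees of freedom and a prior of 2.62, and p-values were adjusted by Benjamini-Hochberg over all 21729 probe sets. No batch is named in the labels. The number of arrays, 2 a group, limits the precision.

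Every member probe set was named. Each gene was described by its brightest probe set, with the others beside it. From the pathway lists, called genes and otherwise the 2 of lowest p per lineage comparison were named, and 6 per comparison of the other imprinted genes. For cell type markers, levels and counts are given, with the genes called between the lineages. Members and lists were chosen with earlier results of these data known. Symbols came from the platform annotation (20826 probe sets with 1 symbol, 436 with several, 9780 without), and sequences and gene order from RefSeq (GRCr8); all 10 member symbols were found there.

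On simulated data for 21729 probe sets with the spread drawn from the fitted prior, 39% of 100 changes of 1 log2 unit and 89% of 100 changes of 2 were called in whole prostate, with 2 false calls of 130. In epithelium the shares were 34% and 83%. Plots were drawn with matplotlib 3.10.9 in Python 3.11.15.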

Additional observations from a re-analysis of the deposited data

How the results depend on the processing

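With 2 arrays a group and 4 residual degrees of freedom, few small changes could be called. In whole prostate 1 of the 11 probe sets was called between the lineages, and the count was 0 with a pseudocount of 1, with no filter, with the replicate block, with the 4 arrays alone and without any single array. It was 2 with a filter at the 50th percentile. The change of H19 kept its direction in 18 of 18 alternatives and its call in 6. Probe sets called over the whole table in whole prostate numbered 379, against 235 with a pseudocount of 1, 1133 with 64, 200 with no filter, 965 with the 50th percentile filter, 1814 with a trended and robust prior, 871 with array weights, 65 with the 4 arrays alone and 26 to 220 with 1 array left out. In epithelium 2 were called, against 1 with median centring, 0 with a pseudocount of 1, 66 with 64, 0 with no filter, 23 with the 50th percentile filter, 205 with the trended prior, 0 with array weights, 0 with the 4 arrays alone and 0 with any array left out. For the difference of effects 63 were called, against 40 with a pseudocount of 1, 262 with 64, 32 with no filter, 169 with the 50th percentile filter, 540 with the trended prior and 5 to 18 with 1 array left out. Between the preparations 6051 were called in control, with 2661 to 5751 when 1 array was left out, and 5946 in vinclozolin, with 3366 to 6024, and 3931 with the 4 arrays alone. Of the 11, 2 to 6 and 4 to 7 were then called. The cause was not tested.

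The replicate numbers do not pair the samples: deviations of same-numbered samples from their group means correlated at 0.0028 in whole prostate and 0.029 in epithelium. With the replicate block 32 probe sets were called in whole prostate, 0 in epithelium and 5 for the difference of effects, and H19 had an adjusted p of 0.131. Median centring moved the median of all probe sets between the preparations to -0.20 in control and -0.17 in vinclozolin, from -0.05 and -0.06. Igf2r 1386872_at was then called lower in both (-0.53 and -0.41). With the intensities as deposited Cdkn1c was called higher in control epithelium (0.51).

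Reversals were limited to changes that were not called. With the intensities as deposited Meg3 changed sign in whole prostate (0.0151) and between the preparations in vinclozolin (0.0210). With 1 array left out, Meg3 ran from -0.15 to 0.0228 in whole prostate. In epithelium H19 ran from -0.22 to 0.0606, Meg3 from -0.39 to 0.99, Mest from -0.0746 to 0.52, Grb10 1397211_at from -0.0322 to 0.56, Grb10 1394610_at from -0.15 to 0.74 and Igf2r 1367636_at from -0.0176 to 0.19. For the difference of effects Dlk1 ran from -0.67 to 0.25, Meg3 from -0.32 to 1.05 and Igf2r 1386872_at from -0.0170 to 0.24. Between the preparations Dlk1 ran from -0.0308 to 0.89, Meg3 from -1.22 to 0.16 and Grb10 1394610_at from -0.65 to 0.24 in control, and Dlk1 from -0.0658 to 0.50 and Meg3 from -0.38 to 0.0507 in vinclozolin. Averaging all probe sets of a gene gave Grb10 -0.35 in whole prostate, 0.04 in epithelium, 0.40 for the difference of effects and 0.37 between the preparations in control. It gave Igf2r -0.02 for the difference of effects and -0.35 between the preparations in vinclozolin.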

Other observations

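The factors that set or keep imprinting marks were represented by 15 genes, of which 11 were tested. Between the lineages 0 of them were called in whole prostate and 0 in epithelium in limma's fit, with median changes of -0.11 and -0.06. Zfp57, a zinc finger protein that protects imprints from demethylation, read 1.7 and 1.2 in whole prostate control and 12.0 and 21.3 in vinclozolin. In epithelium it read 43.0 and 29.2 in control and 18.9 and 15.8 in vinclozolin. Its changes of 0.93 ± 0.17 and -0.66 ± 0.17 had opposite signs, and neither was called (adjusted p = 0.0544 and 0.280). Both whole prostate control arrays were under 16 units, so the size of the first depends on the pseudocount. Zfp445 measured -0.23 ± 0.13 in whole prostate and Setdb1 -0.29 ± 0.11 in epithelium, the next lowest p-values. Between the preparations Zfp57 (1.45 ± 0.17), Uhrf1 (1.16 ± 0.20), Arid4a (1.01 ± 0.14) and Dnmt1, the maintenance DNA methyltransferase (0.72 ± 0.15), were called higher in control epithelium. Smchd1 (-1.72 ± 0.28), Setdb1 (-0.69 ± 0.11) and Zfp445 (-0.46 ± 0.13) were called lower, where 27.8% of all probe sets were called. Zfp57 and Uhrf1 were under 16 units on both whole prostate control arrays, so the sizes of their differences depend on the pseudocount. In vinclozolin epithelium Zfp57 (-0.13 ± 0.17, adjusted p = 0.590) and Smchd1 (-0.68 ± 0.28, adjusted p = 0.123) were not called. There 3 of the 11 were called higher and 2 lower, against 27.4% of all.

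Of the Notch pathway, to which Dlk1 is related, 11 genes were tested and 0 were called between the lineages in either preparation. Notch3 measured 0.50 ± 0.24 in whole prostate and 0.61 ± 0.24 in epithelium, and Hes1, a Notch target gene, -0.12 ± 0.16 and -0.79 ± 0.16. Heyl, another target, measured 0.30 ± 0.15 in whole prostate. Hes1 read 1712.6 and 1915.3 in epithelium control and 974.5 and 1009.0 in vinclozolin (adjusted p = 0.223). In control epithelium Hes1 was called higher than in whole prostate by 1.85 ± 0.16 and Heyl by 1.19 ± 0.15, 2 of 11 against 27.8% of all.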
